A study of Mus musculus with 19 samples.

Results

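The muscle calcium store genes described here are the 10 mouse genes for the calcium pumps of the sarcoplasmic and endoplasmic reticulum (SERCA; Atp2a1, Atp2a2 and Atp2a3), the small pump regulators phospholamban (Pln) and sarcolipin (Sln), the ryanodine receptors (Ryr1, Ryr2 and Ryr3) and the calsequestrins (Casq1 and Casq2). They were chosen by gene name, and each had 1 row among the 54532 gene rows of the tables, 22046 of which are annotated as protein coding. The series, titled for genes specific to the kidney, holds 1 total RNA library from each of 19 tissues, all labelled as coming from chow-fed male C57BL/6J mice at 8 weeks of age. The column names of the authors' group values carry the prefix WT, read here as wild type, for every tissue. Levels are given as FPKM, the reads of a gene divided by the transcript length in kilobases and by the assigned reads of the library per 1000000, which the authors deposited for skeletal muscle, heart, aorta, eye, parathyroid, brain, thymus, stomach, colon, testis, white adipose tissue (WAT), kidney and liver. Raw read counts covered bone, brown adipose tissue (BAT), intestine, lung, skin and spleen, and their FPKM was recomputed here by the same formula and lengths. The skeletal muscle sample is labelled gastrocnemius, a calf muscle, and the WAT sample epididymal fat. Assigned reads per library ranged from 11135276 in colon to 17263334 in parathyroid.

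No tissue had a replicate, so no test between tissues was possible. The intervals given are 95% intervals from the read counts (Poisson for a level, Clopper-Pearson for a fold), and they cover counting error only, not the spread between animals. Against the label male, the kidney and eye libraries had the female transcript Xist at 90.9 and 97.5 FPKM with 3 reads each over the Y-linked genes summed, and aorta and parathyroid held both kinds (Xist at 22.1 and 59.7 FPKM, Y-linked genes at 80.5 and 35.7 FPKM). In the other 15 libraries Xist was at most 0.0683 FPKM. Tg, the thyroglobulin gene, was at 57706 FPKM in parathyroid and 5505 FPKM in aorta. Crisp1, a gene of the epididymis, was at 11117 FPKM in WAT. The defining markers of both striated muscles were present: the 9 markers of skeletal fibres lay between 579.7 and 26350 FPKM in skeletal muscle, and the 5 cardiomyocyte markers between 472 and 10914 FPKM in heart. With or without the eye, parathyroid and aorta libraries, and with or without kidney and eye, 8 of the 10 genes passed the enrichment rule used below. None of these libraries was the highest for a called gene, so leaving them out could not remove a call.

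In striated muscle, calcium held in the sarcoplasmic reticulum is released through ryanodine receptors to start contraction, and SERCA pumps return it to the store so that the fibre relaxes. Calsequestrin binds calcium inside the store near the release channels. Phospholamban and sarcolipin are short membrane proteins that lower the calcium affinity or the efficiency of the pump, and phosphorylation of phospholamban relieves its inhibition during adrenergic stimulation of the heart. Outside striated muscle the same families serve calcium signalling from the endoplasmic reticulum.

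The coding sequences of the 2 regulators are shown because these genes had the largest margins of heart over the next tissue and are short enough to read whole. Each lies in an uninterrupted stretch of the genome (GRCm38, GENCODE M21 transcripts, plus strand), chr10:53343864-53344022 for Pln and chr9:53853473-53853568 for Sln. Capitals mark the start and stop codons, and between them lie 52 codons in Pln and 31 in Sln, the start codon included. In an alignment of 90 bases the sequences were 56.7% identical, with no shared run longer than 8 bases.
Pln: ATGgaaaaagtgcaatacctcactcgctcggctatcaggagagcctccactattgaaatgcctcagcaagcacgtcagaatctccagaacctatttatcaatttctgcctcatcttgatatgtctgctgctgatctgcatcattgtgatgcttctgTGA
Sln: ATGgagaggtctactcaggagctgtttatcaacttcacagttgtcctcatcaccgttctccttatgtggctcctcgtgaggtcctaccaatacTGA

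Promoters are shown for 2 genes with their highest level in skeletal muscle (Atp2a1 and Casq1) and for 2 with their highest level in heart (Pln and Casq2), as examples of the genes called in each muscle. RefSeq promoter windows (GRCm38.p6, 250 bases before to 50 bases after the annotated start) were matched for 7 of the 10 genes. Atp2a2, Sln and Ryr3 had no entry. The 4 windows are chr7:126463024-126463323 (minus strand), chr1:172219846-172220145 (minus strand), chr10:53337436-53337735 (plus strand) and chr3:102086165-102086464 (plus strand), in the order printed. Capitals mark any match, on either strand, to the E-box CANNTG, the MEF2 core CTAAAAATA, the M-CAT element CATTCC or the GATA motif AGATAA.
Atp2a1: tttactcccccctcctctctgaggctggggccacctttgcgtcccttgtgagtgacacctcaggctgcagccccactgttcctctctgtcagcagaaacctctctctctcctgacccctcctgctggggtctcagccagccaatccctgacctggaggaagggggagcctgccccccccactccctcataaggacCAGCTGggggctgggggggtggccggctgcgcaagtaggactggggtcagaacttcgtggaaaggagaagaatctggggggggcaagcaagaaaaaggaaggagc
Casq1: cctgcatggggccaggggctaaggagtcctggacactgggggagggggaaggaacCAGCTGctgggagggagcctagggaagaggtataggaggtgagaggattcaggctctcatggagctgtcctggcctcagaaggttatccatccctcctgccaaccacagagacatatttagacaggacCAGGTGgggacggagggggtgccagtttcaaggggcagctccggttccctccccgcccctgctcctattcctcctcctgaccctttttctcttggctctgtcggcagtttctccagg
Pln: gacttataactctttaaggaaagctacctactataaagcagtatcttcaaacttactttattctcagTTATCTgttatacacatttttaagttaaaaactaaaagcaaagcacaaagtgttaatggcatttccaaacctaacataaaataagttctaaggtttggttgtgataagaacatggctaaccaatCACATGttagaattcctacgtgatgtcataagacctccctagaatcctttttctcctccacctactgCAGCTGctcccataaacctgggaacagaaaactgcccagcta
Casq2: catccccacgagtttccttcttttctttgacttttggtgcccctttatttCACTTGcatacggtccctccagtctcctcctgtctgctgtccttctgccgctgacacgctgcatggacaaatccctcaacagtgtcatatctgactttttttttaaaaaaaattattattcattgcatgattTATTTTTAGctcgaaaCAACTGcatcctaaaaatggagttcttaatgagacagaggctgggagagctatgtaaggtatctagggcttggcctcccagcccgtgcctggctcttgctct

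These letters matched as follows, with the first transcribed base counted as 1 and the base before it as -1. At least 1 E-box lay in 5 of the 7 windows, against 72.3% of 32851 RefSeq promoter windows of the same length. The CAGCTG form of the E-box, which overlaps the general motif, lay in 3 of 7, against 16.3% of all windows. Those 3 were Atp2a1 at -55, Casq1 at -195 and Pln at 9. The MEF2 core lay in the window of Casq2 alone among the 7, at -68 on the opposite strand, and in 0.517% of all windows. The GATA motif lay in the window of Pln alone, at -183 on the opposite strand (11.2% of all windows). TATAAA, which is not capitalised, was also found in Pln alone, at -219 (13.6%). M-CAT was in 0 of 7 (14.7%). A match of letters is a description and not a binding site.

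**Figure D1:**
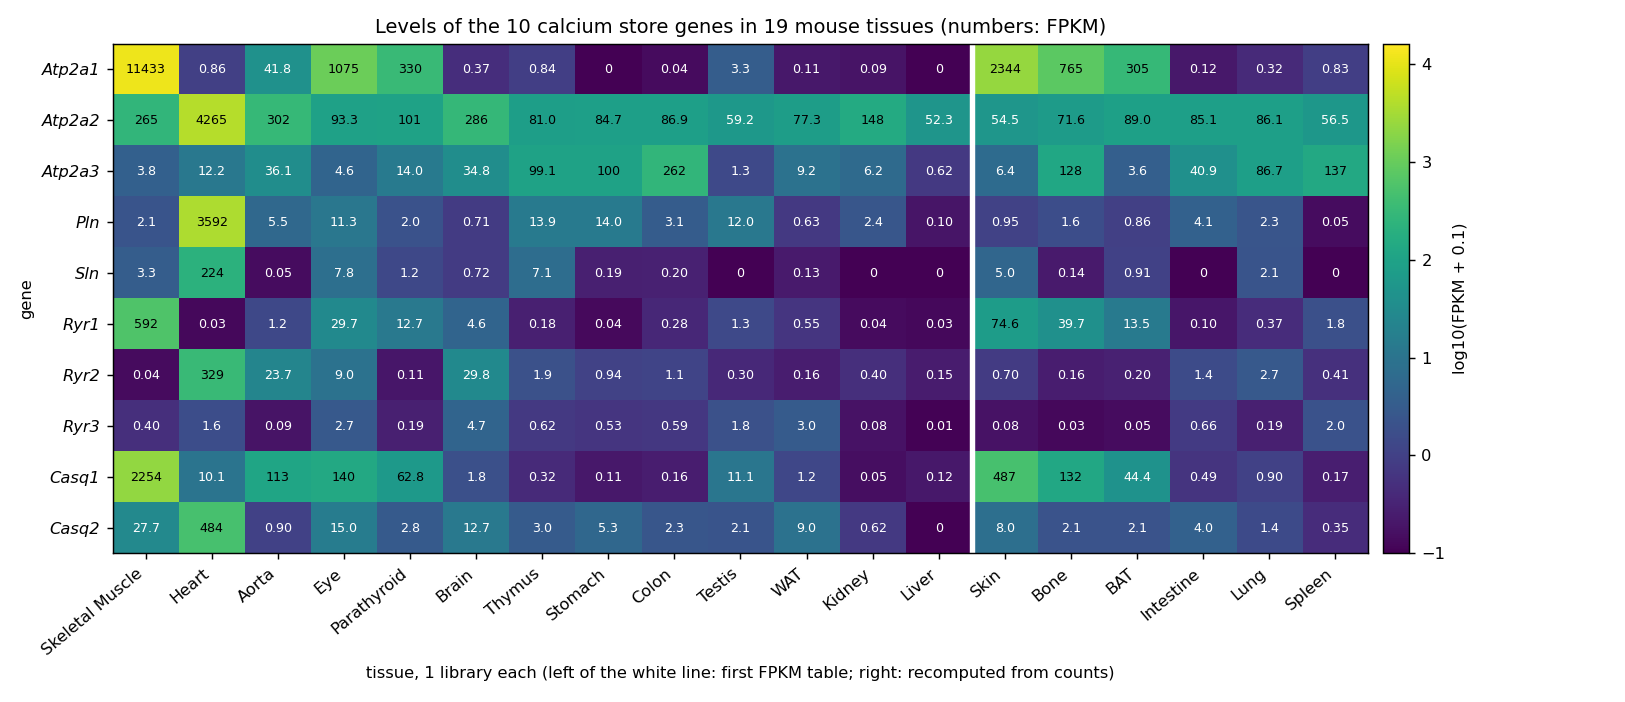
Levels of the 10 genes (rows) in 19 tissues (columns), coloured by log10(FPKM + 0.1) with the FPKM printed in each cell, 1 library per tissue. The highest cells are Atp2a1 in skeletal muscle at 11433 FPKM and Atp2a2 in heart at 4265 FPKM, while the row of Atp2a2 has no cell below 52.3 FPKM.

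In skeletal muscle and heart, different paralogs led the pumps, the ryanodine receptors and the calsequestrins. Reads of the 10 genes made up 3.13% of all assigned reads in skeletal muscle (534867 reads) and 2.04% in heart (286518 reads), against 0.0165% in liver, the lowest library. The term enriched is used for a gene at 1 FPKM or more in its highest tissue whose level there, after 0.1 FPKM was added to every value, exceeded that of each other tissue in the first table by 4-fold or more. Of the 10 genes, 8 were called among those 13 tissues: Atp2a1, Ryr1 and Casq1 in skeletal muscle, and Atp2a2, Pln, Sln, Ryr2 and Casq2 in heart. Over all 26586 genes at 1 FPKM or more in the table, 32.4% were called in some tissue, 0.598% in skeletal muscle, 0.451% in heart, 2.56% in brain and 1.62% in colon. The same 8 genes were called in the same tissues with all 19 tissues, where the rule called 28.3% of 27937 genes in some tissue, 0.304% in skeletal muscle, 0.358% in heart, 2.2% in brain and 0.404% in colon. In whole tissue, fewer cells of a type and less RNA per cell cannot be told apart.

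Atp2a1 encodes SERCA1, the pump of fast skeletal fibres (ENSMUSG00000030730, chromosome 7, 126445858 to 126463108, minus strand). Its FPKM was 11433 in skeletal muscle, 1075 in eye, 330 in parathyroid, 41.8 in aorta, 3.27 in testis and 0.855 in heart. It was 0.838 in thymus, 0.369 in brain, 0.114 in WAT, 0.0854 in kidney and 0.0432 in colon, with no read in liver or stomach, where 3 reads would be 0.0928 and 0.0901 FPKM. Skeletal muscle therefore stood 10.6-fold above eye (10.5 to 10.7). In the count table the order was skin at 2344 FPKM, bone at 765, BAT at 305, spleen at 0.833, lung at 0.322 and intestine at 0.117. Set against skin, the fold of skeletal muscle was 4.88 (4.84 to 4.92). Heart and thymus did not differ beyond counting error, and neither did any neighbouring pair from brain downward in the first table.

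Atp2a2 encodes SERCA2, whose splice forms include the pump of the heart and slow fibres and the pump of most other cells (ENSMUSG00000029467, chromosome 5, 122453513 to 122502225, minus strand). The gene tables sum these forms. It was the only one of the 10 genes at 1 FPKM or more in all 19 tissues, with a lowest level of 52.3 FPKM in liver and a median of 86.1 FPKM. Heart was at 4265 FPKM, aorta at 302, brain at 286, skeletal muscle at 265 and kidney at 148. The other 8 tissues of the first table lay between 52.3 and 101 FPKM. Heart stood 14.1-fold above aorta (13.9 to 14.4). In that table only colon and stomach, at 86.9 and 84.7 FPKM, were neighbours within counting error. The 6 tissues of the count table were between 54.5 FPKM in skin and 89.0 FPKM in BAT, a smaller ratio of highest to lowest than for any other of the 10 genes there.

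Atp2a3 encodes SERCA3, a pump known from epithelial, blood and endothelial cells (ENSMUSG00000020788, chromosome 11, 72961169 to 72993044, plus strand). It was highest in colon at 262 FPKM, then in spleen at 137, bone at 128, stomach at 100.05 and thymus at 99.1. Lung was at 86.7 FPKM, intestine at 40.9, aorta at 36.1 and brain at 34.8. Parathyroid was at 14.0 FPKM, heart at 12.2, WAT at 9.21, skin at 6.38, kidney at 6.24, eye at 4.56, skeletal muscle at 3.82 and BAT at 3.57. The lowest were testis at 1.30 and liver at 0.622 FPKM. Colon stood 2.62-fold above stomach (2.53 to 2.71) and 1.90-fold above spleen (1.85 to 1.96), short of the 4-fold rule, so no tissue was called. Stomach and thymus did not differ beyond counting error, nor did aorta and brain. These tissues carried markers of different cells. The gut epithelium markers Vil1, Epcam and Lgals4 summed to 6148 FPKM in colon, 5232 FPKM in intestine and 459 FPKM in stomach. Atp2a3 was at 262, 40.9 and 100.05 FPKM there, in the same order. The B cell markers summed to 1046 FPKM in spleen, the platelet markers to 1479 FPKM in bone and the T cell markers to 2705 FPKM in thymus. Of the platelet markers in bone, Ppbp was at 662, Pf4 at 503 and Itga2b at 314 FPKM, and Gp1bb was listed at 0. The part of these cells in the levels of Atp2a3 was not tested.

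Pln (ENSMUSG00000038583, chromosome 10, 53337667 to 53345987, plus strand) had the largest margin of the 10 genes between its highest and its next tissue. Heart was at 3592 FPKM, and stomach came next at 14.0 FPKM, 256-fold lower (229 to 288). Thymus was at 13.9, testis at 11.97 and eye at 11.3 FPKM, and counting error did not separate neighbours among these and stomach. Aorta followed at 5.54, intestine at 4.12 and colon at 3.11 FPKM. Kidney was at 2.36, lung at 2.27, skeletal muscle at 2.11, parathyroid at 1.96 and bone at 1.61 FPKM. Skin (0.948), BAT (0.858), brain (0.711) and WAT (0.625) stayed under 1 FPKM, with liver at 0.0970 and spleen at 0.0466. Heart had 0.842 FPKM of Pln for each FPKM of Atp2a2, and this ratio was 0.202 in testis, 0.171 in thymus, 0.166 in stomach and 0.00799 in skeletal muscle.

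Sln (ENSMUSG00000042045, chromosome 9, 53850164 to 53854560, plus strand), a regulator known in mice from the atria and from some skeletal muscles, was also highest in heart at 224 FPKM. Eye was at 7.79 and thymus at 7.11 FPKM, which counting error did not separate, and heart stood 28.8-fold above eye (24.7 to 33.7). Skin was at 5.02 FPKM, skeletal muscle at 3.33, lung at 2.13 and parathyroid at 1.23. BAT, brain, colon, stomach, bone, WAT and aorta lay between 0.0511 and 0.910 FPKM. Kidney, liver, testis, intestine and spleen had no read, which allows at most 0.134 to 0.146 FPKM at 3 reads. The gastrocnemius was thus not among the 4 highest libraries for Sln, although it was the highest for Atp2a1. In the heart library the 4 atrial markers summed to 6708 FPKM. Of the ventricular markers, Myl2 was at 12109 and Myl3 at 4307 FPKM, while Hey2 was at 2.60 FPKM, below its levels in aorta (37.6 FPKM) and eye (3.46 FPKM).

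Sln in thymus and lung stood beside cardiac transcripts. All 5 cardiomyocyte markers were at 1 FPKM or more in thymus, with a sum of 207 FPKM, and each was at 0.368 to 0.777% of its heart level (Myh6 0.607%, Tnni3 0.709%, Tnnt2 0.777%, Actc1 0.710% and Mybpc3 0.368%). Of the atrial markers, Myl7 was at 2.88% and Myl4 at 3.18% of heart, Nppa at 0.310%, and Bmp10 had 1 read. Sln in thymus was at 3.17% of its heart level, Casq2 at 0.618%, Ryr2 at 0.564% and Pln at 0.386%. In lung the cardiomyocyte markers summed to 71.0 FPKM and the atrial markers to 43.9 FPKM, beside Sln at 2.13 FPKM. Conversely, heart held the T cell markers Cd3e, Cd3g, Cd4, Cd8a and Lck at 7.11 to 8.45% of their thymus levels. Atp2a3 was at 12.2 FPKM in heart and 99.1 FPKM in thymus. The part of such RNA in these values was not tested.

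Ryr1 encodes the release channel of skeletal muscle (ENSMUSG00000030592, chromosome 7, 29003344 to 29125179, minus strand). Its FPKM was 592 in skeletal muscle, 74.6 in skin, 39.7 in bone, 29.7 in eye, 13.5 in BAT and 12.7 in parathyroid. Brain, at 4.64 FPKM, led the remaining tissues, followed by spleen at 1.79, testis at 1.28 and aorta at 1.21. All other libraries were under 1 FPKM, and heart had 3 reads (0.0307 FPKM, interval 0.00632 to 0.0896). Skeletal muscle stood 19.9-fold above eye (19.2 to 20.6) and 7.94-fold above skin (7.75 to 8.13).

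Ryr2 encodes the release channel of the heart, which is also known from neurons (ENSMUSG00000021313, chromosome 13, 11553102 to 12106945, minus strand). Heart was at 329 FPKM, brain at 29.8, aorta at 23.7 and eye at 8.98. Lung was at 2.69, thymus at 1.85, intestine at 1.41 and colon at 1.07 FPKM. The remaining 11 tissues were under 1 FPKM, from stomach at 0.942 down to skeletal muscle at 0.0420 FPKM, which was 3 reads (interval 0.00866 to 0.123). Heart stood 11.03-fold above brain (10.5 to 11.5). In the order of the first table, neighbours from heart down to colon differed beyond counting error, and from kidney downward none were. The neuron markers Snap25, Syt1, Rbfox3, Stmn2 and Nefl summed to 1886 FPKM in brain and 402 FPKM in eye, and the smooth muscle markers to 21526 FPKM in aorta.

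Ryr3, the third receptor gene, known from brain and at low levels from many tissues (ENSMUSG00000057378, chromosome 2, 112631355 to 113217096, minus strand), was low in every library. Brain was highest at 4.73 FPKM (4.35 to 5.14), followed by WAT at 2.99 (2.69 to 3.32), eye at 2.72 (2.43 to 3.04), spleen at 1.99, testis at 1.81 and heart at 1.63 FPKM. The other 13 tissues were under 1 FPKM, from intestine at 0.665 to liver at 0.00915. The margin of brain over WAT was 1.58-fold (1.38 to 1.81), so no tissue was called. WAT and eye did not differ beyond counting error, and neither did testis and heart. In WAT the level stood beside the epididymal transcript Crisp1 at 11117 FPKM, and whether Ryr3 came from fat or epididymis was not tested.

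Casq1 encodes the calsequestrin of fast skeletal fibres (ENSMUSG00000007122, chromosome 1, 172209894 to 172219868, minus strand). Its FPKM was 2254.5 in skeletal muscle, 487 in skin, 140 in eye, 132 in bone, 113 in aorta, 62.8 in parathyroid and 44.4 in BAT. Testis was at 11.1 and heart at 10.1 FPKM, which counting error did not separate, and brain was at 1.75 and WAT at 1.17. The other 8 tissues lay between 0.0533 FPKM in kidney and 0.904 FPKM in lung. Skeletal muscle stood 16.1-fold above eye (15.4 to 16.7) and 4.63-fold above skin (4.52 to 4.74), the smallest margin of the 8 called genes.

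Casq2, the calsequestrin of cardiac and slow muscle (ENSMUSG00000027861, chromosome 3, 102086415 to 102146514, plus strand), was at 484 FPKM in heart and at 27.7 FPKM in skeletal muscle, a fold of 17.5 (16.2 to 18.9). Eye was at 15.0, brain at 12.7, WAT at 8.99, skin at 8.00, stomach at 5.26 and intestine at 3.96 FPKM. Thymus, parathyroid, colon, testis, bone, BAT and lung were between 1.36 and 2.99 FPKM, and aorta, kidney and spleen were under 1. Liver had no read, which allows up to 0.136 FPKM at 3 reads. In brain the level stood beside markers of Purkinje neurons (Pcp2 at 235, Calb1 at 232 and Car8 at 151 FPKM), in which Casq2 is known. In eye it stood beside slow fibre markers at a summed 150 FPKM, and the source in either tissue was not tested.

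**Figure D2:**
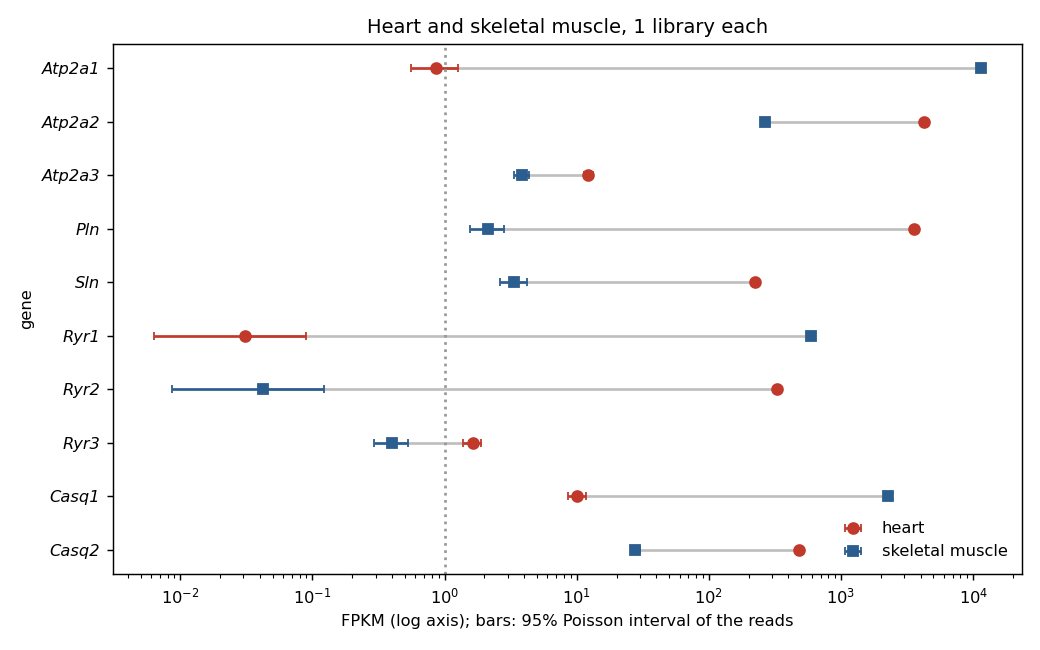
FPKM of each gene in heart (circles) and skeletal muscle (squares) on a log axis, with 95% Poisson intervals of the reads and a dotted line at 1 FPKM, 1 library each. Atp2a1, Ryr1 and Casq1 lie to the right in skeletal muscle and the other 7 genes in heart, and Ryr1 in heart and Ryr2 in skeletal muscle rest on 3 reads each.

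Between the 2 striated muscles, 8 of the 10 genes differed by at least 4-fold with the higher level at 1 FPKM or more, 5 of them higher in heart and 3 higher in skeletal muscle. Among 15033 genes at 1 FPKM or more in either library, 20.3% passed this rule, 16.6% toward heart and 3.69% toward skeletal muscle. The median log2 difference of heart minus skeletal muscle was 2.90 over the 10 genes and 0.73 over all 15033. That shift depends on scaling: it was 0.04 with median-of-ratios size factors and -0.26 with upper quartile scaling, and the same 8 genes passed in the same direction under both.

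The sizes of these differences ranged widely. Ryr1 and Ryr2 were close to mutually exclusive, 592 against 0.0307 FPKM and 0.0420 against 329 FPKM in skeletal muscle and heart. Since the lower value was 3 reads in each case, the ratios of 19312 for Ryr1 (6608 to 93649) and 7837 for Ryr2 (2681 to 38006) are imprecise. Atp2a1 was 13369-fold higher in skeletal muscle (9056 to 20658), on 25 heart reads, and Casq1 223-fold higher (191 to 262). In the other direction Pln was 1698-fold higher in heart (1281 to 2304), Sln 67.3-fold (53.6 to 85.7), Casq2 17.5-fold and Atp2a2 16.1-fold (15.8 to 16.4). The paralogs named for cardiac and slow muscle were thus present in the gastrocnemius at 5.72% (Casq2) and 6.21% (Atp2a2) of their heart level. The slow fibre markers Myh7, Tnnt1 and Tnni1 summed to 1182 FPKM in that library. Atp2a3, at 12.2 FPKM in heart and 3.82 FPKM in skeletal muscle, was 3.20-fold apart (2.74 to 3.75) and was not called. Ryr3, at 1.63 and 0.399 FPKM, was 4.08-fold apart (2.94 to 5.76) and fell short of the rule once 0.1 FPKM was added to both.

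**Figure D3:**
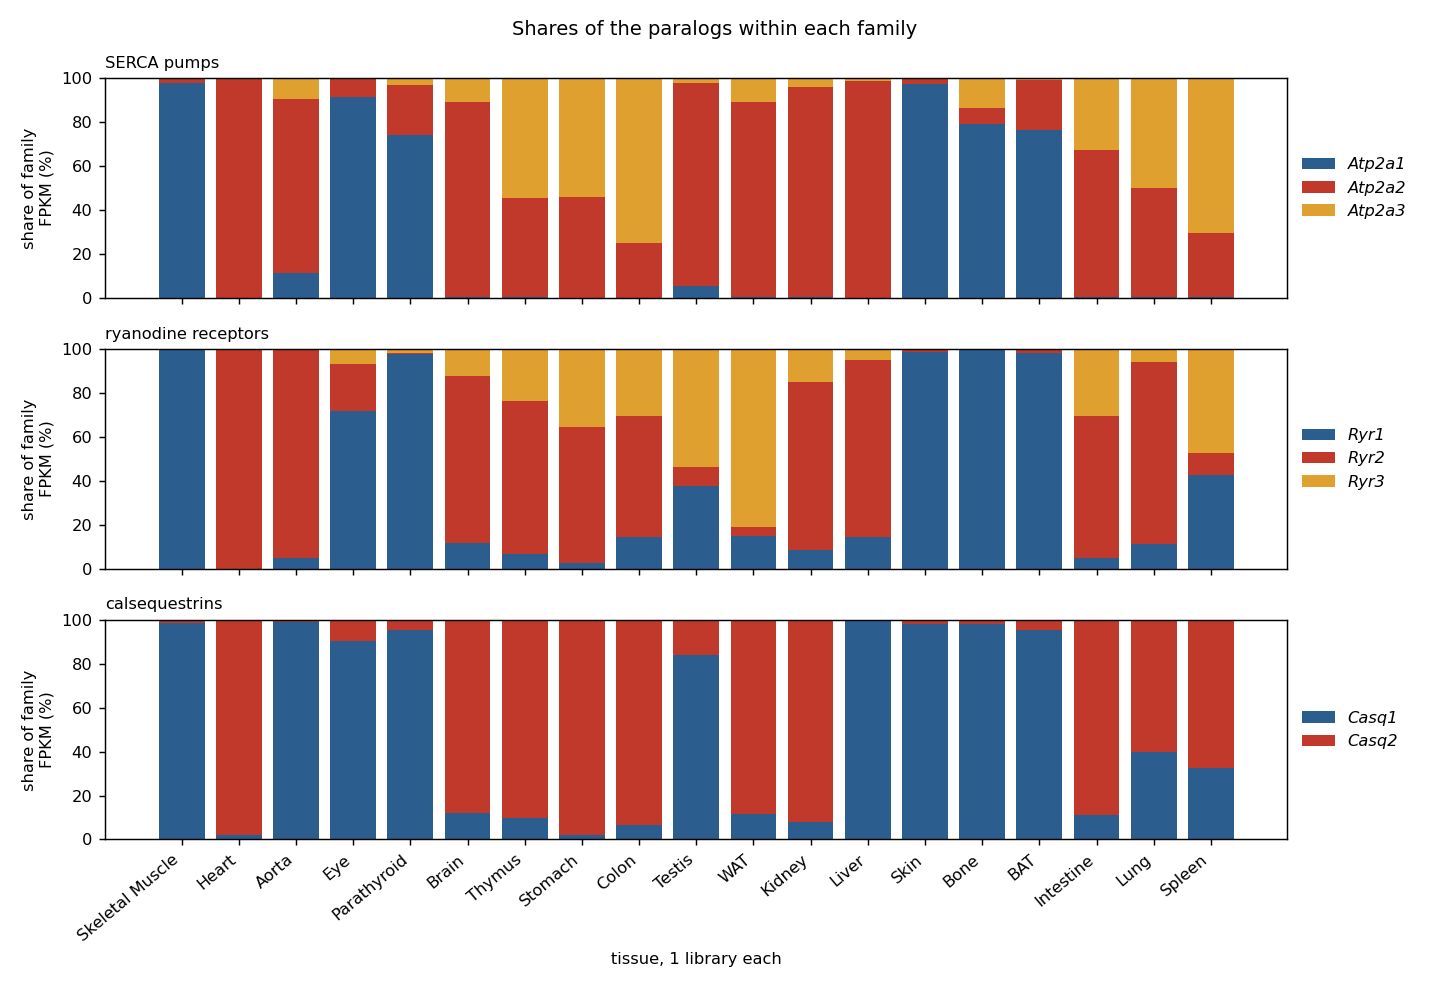
Share of each paralog (percent of the summed FPKM of its family) in 19 tissues, 1 library each, for the SERCA pumps, the ryanodine receptors and the calsequestrins. Skeletal muscle is filled by Atp2a1, Ryr1 and Casq1 and heart by Atp2a2, Ryr2 and Casq2, while Atp2a3 holds 75.1% of the pump FPKM in colon and Ryr3 81.0% of the receptor FPKM in WAT.

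Within each family, the share of a paralog does not depend on library scaling, though it does depend on the gene lengths. Among the pumps, Atp2a1 made up 97.7% of the FPKM in skeletal muscle and Atp2a2 made up 99.7% in heart. Atp2a2 led in 8 of 19 tissues, which besides heart were liver at 98.8%, kidney at 95.9%, testis at 92.8%, WAT at 89.2%, brain at 89.0%, aorta at 79.5% and intestine at 67.5%. Atp2a3 led in colon at 75.1%, spleen at 70.6%, thymus at 54.8% and stomach at 54.1%, and in lung at 50.1%, where it was at 86.7 and Atp2a2 at 86.1 FPKM. Atp2a1 led in the remaining 6, namely skeletal muscle, skin (97.5%), eye (91.7%), bone (79.3%), BAT (76.7%) and parathyroid (74.2%).

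For the receptors, Ryr1 took 99.9% in skeletal muscle and Ryr2 99.5% in heart. Ryr1 led in 6 tissues, the same 6 in which Atp2a1 led. Brain divided its receptors as 76.1% Ryr2, 12.1% Ryr3 and 11.8% Ryr1. Ryr3 led in WAT at 81.0%, testis at 53.5% and spleen at 47.5%, where Ryr1 held 42.7%. These last families were small, with summed levels of 3.69, 3.39 and 4.19 FPKM. Among the calsequestrins Casq1 led in 9 tissues, the 6 named for Atp2a1 and also aorta (99.2%), testis (84.0%) and liver, the last on 2 reads. Casq2 took 98.0% in heart, 97.9% in stomach, 88.4% in WAT and 87.8% in brain.

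Of the 2 regulators, Pln led in 15 tissues and Sln in skeletal muscle (61.1%), skin (84.1%), BAT (51.5%) and brain (50.2%). The last 2 shares rested on 39 and 32 reads in all. The deposited lengths are means over all annotated transcripts, short fragments included, so Ryr2 was divided by 4179 bases although its longest transcript has 16814. Taking the longest transcript of each gene left the leader in place for 71 of the 76 pairs of family and tissue. The exceptions were Sln in place of Pln in eye, lung and parathyroid, and Ryr3 in place of Ryr2 in colon and stomach. In brain the receptor shares then became 63.6% Ryr2, 18.4% Ryr3 and 18.0% Ryr1. Reads without any length gave the same leader in 75 of 76, the exception being brain, where Pln and Sln were tied at 16 reads each. The authors' second FPKM values cover the 6 tissues with raw counts. With them Pln led in 3 of the 6, against 4 with the recomputed FPKM. The numbers of these tissues led by Atp2a2, Ryr1 and Casq1 did not change.

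**Figure D4:**
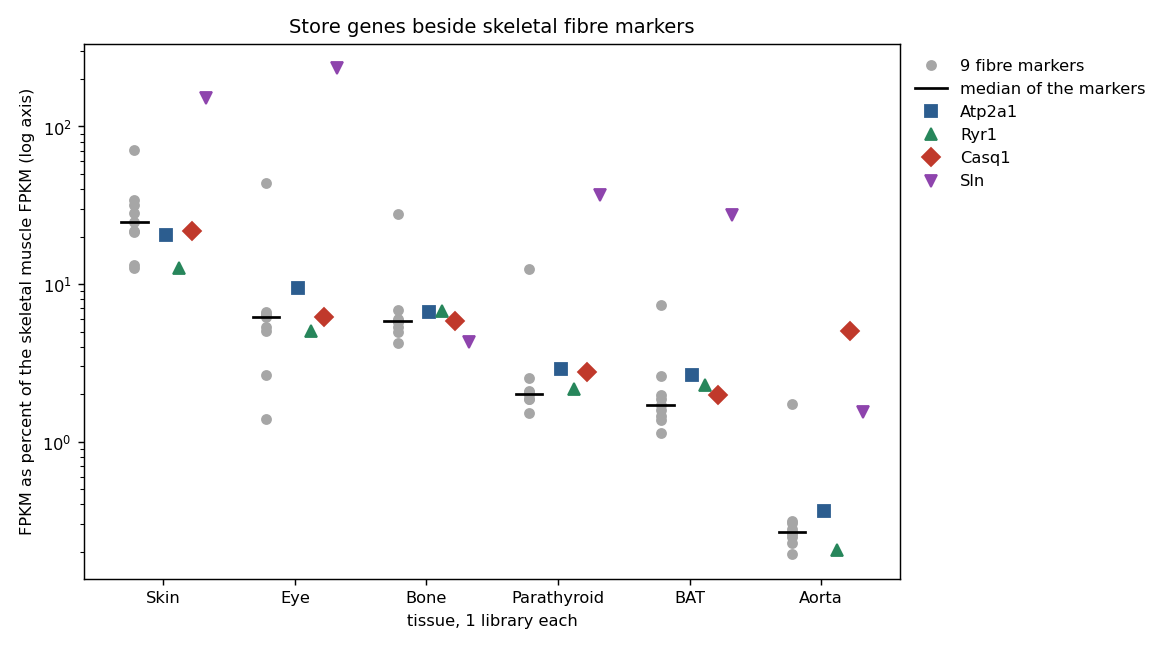
FPKM as percent of the skeletal muscle FPKM (log axis) in 6 other libraries with fibre transcripts, for 9 skeletal fibre markers (circles, median as a bar) and for Atp2a1, Ryr1, Casq1 and Sln, 1 library each. Casq1 in aorta, at 5.01%, lies above all 9 markers, while Atp2a1 and Ryr1 lie within their range in aorta, and Sln lies above them in skin, eye, parathyroid and BAT.

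The skeletal muscle paralogs were accompanied by fibre structural genes in some other libraries, though not in all. Acta1, Ckm, Mylpf, Tnnt3, Tnnc2, Tnni2, Actn3, Myh1 and Myh4 were all at 1 FPKM or more in skin, eye, bone, parathyroid, BAT and aorta. Their median, as a percentage of the skeletal muscle level, was 24.9% in skin (12.7 to 71.3 over the 9 genes) beside 20.5% for Atp2a1, 12.6% for Ryr1 and 21.6% for Casq1, with Ryr1 below all 9 markers. In eye the median was 6.19% (1.40 to 43.7) beside 9.41%, 5.02% and 6.22% for the same 3 genes. Bone had a median of 5.80% (4.24 to 27.8) beside 6.69%, 6.71% and 5.86%. In parathyroid it was 2.01% (1.51 to 12.4) beside 2.89%, 2.14% and 2.78%, and in BAT 1.71% (1.13 to 7.36) beside 2.66%, 2.28% and 1.97%. In these 5 libraries the 3 store genes lay between 0.506 and 1.56 times the marker median. Elsewhere this did not always hold. In brain, for example, Ryr1 was at 0.783% of its skeletal muscle level, beside a marker median of 0.00381% (at most 0.0209%). Spleen had Ryr1 at 0.302%, beside a median of 0.00211% (at most 0.0706%). In brain and spleen, Atp2a1 was at 0.00322% and 0.00729%, and Casq1 at 0.0778% and 0.00742%. The part of muscle fibres in the samples was not tested beyond these values.

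In aorta, Casq1 stood apart from Atp2a1 and Ryr1. The fibre markers had a median of 0.267% of skeletal muscle (0.192 to 1.73), with Atp2a1 at 0.366% and Ryr1 at 0.204%, while Casq1 was at 5.01%, which is 18.8 times the marker median and above 9 of 9 markers. The ratio of Casq1 to Atp2a1 FPKM was 2.70 in aorta, 0.197 in skeletal muscle and between 0.130 and 0.208 in skin, eye, bone, parathyroid and BAT. The Casq1 level rested on 1861 reads. Casq2 in aorta was at 0.899 FPKM on 19 reads, rank 16 of the 19 tissues and below colon, stomach and testis. At 3.24% of its skeletal muscle level of 27.7 FPKM, it was above 9 of 9 markers. The library was rich in the smooth muscle markers Myh11, Acta2, Tagln, Cnn1, Actg2 and Smtn, at a summed 21526 FPKM against 2388 FPKM in colon and 1666 FPKM in stomach, where Casq1 was at 0.162 and 0.113 FPKM. Testis also had Casq1 out of step with Atp2a1, at 11.1 against 3.27 FPKM (a ratio of 3.40).

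Sln did not follow the fibre markers. As a percentage of the gastrocnemius level it was 234% in eye, 151% in skin, 37.0% in parathyroid and 27.3% in BAT, in each case above all 9 markers, and 4.29% in bone, above 1 of 9. The skeletal muscle value behind these percentages was 3.33 FPKM (75 reads). Sln had 28 reads in parathyroid, 20 in BAT and 3 in bone. The bone interval of 0.0294 to 0.417 FPKM is too wide to place Sln among the markers there. Casq2 was above 9 of 9 markers in eye (54.0% of skeletal muscle) and BAT (7.44%), and above 8 of 9 in parathyroid (10.3%) and bone (7.46%). In eye Actc1, a cardiac actin gene also known from immature skeletal fibres, was at 242 FPKM, below its 307 FPKM in skeletal muscle. Its source in eye was not tested.

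The number of store genes at 1 FPKM or more ranged from 1 in liver (Atp2a2) to 10 in eye. Among genes at that level in any of the 19 tissues, 44.6% reached it in liver and 61.3% in eye. Kidney had 3 of the 10 (Atp2a2, Atp2a3 and Pln), where 51% of all genes reached it. Stomach and spleen had 4 each (49% and 55.6% of all genes), and WAT, colon and intestine 5 each (56.1%, 53.4% and 53%). Thymus, BAT and lung had 6 each (57.9%, 46% and 58%), and aorta, brain, bone and skin 7 each (50.5%, 55.9%, 54.9% and 56.3%). Skeletal muscle, heart, parathyroid and testis had 8 each (43.7%, 51.9%, 54.7% and 64.2%). At a minimum of 5 FPKM the counts were 5 in skeletal muscle, 5 in parathyroid and 3 in testis. In the authors' deposited table of group values, kidney is a mean over libraries, and there Atp2a2 was at 151 FPKM (148 in the single kidney library), Atp2a3 at 7.29 (6.24) and Casq2 at 0.346 (0.623).

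**Figure D5:**
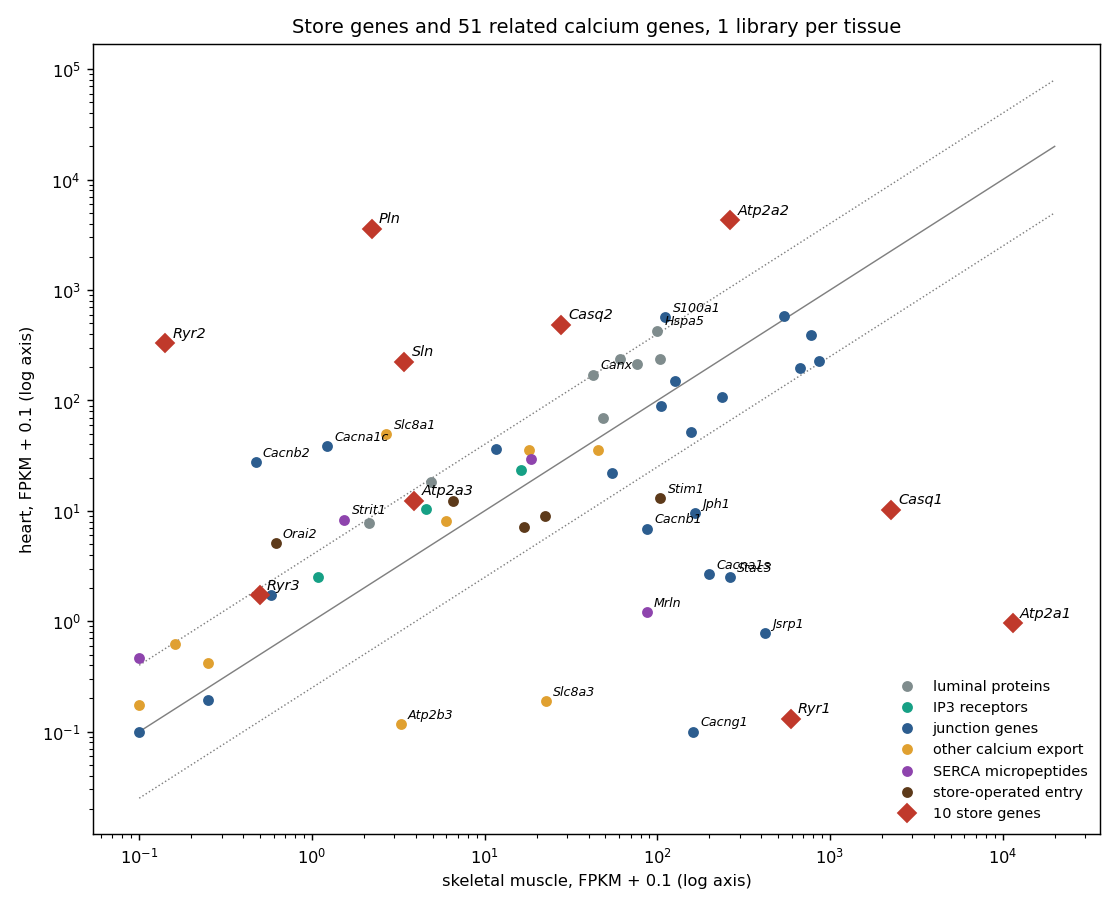
FPKM + 0.1 in heart against skeletal muscle (both log axes, 1 library each) for the 10 store genes (diamonds) and 51 related calcium genes (circles, coloured by list), with the line of equality and dotted lines at 4-fold either way. Cacng1, Jsrp1 and Mrln lie far below the diagonal with Ryr1 and Atp2a1, while Cacna1c, Cacnb2 and Slc8a1 lie above it with Ryr2.

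A wider set of 51 calcium-handling genes was read in the same way. Of these, 12 were called in some tissue among 13 (beside the 32.4% of all genes given above), 8 were at least 4-fold higher in heart, 10 higher in skeletal muscle and 33 not called, beside 16.6% and 3.69% of all genes in these directions. Their median log2 difference of heart minus skeletal muscle was 0.53, beside 0.73 over all genes. These calls between the muscles used total-read scaling alone, so those near 4-fold depend on the shift with scaling given above. Whether the 10 genes and the wider set differ was not tested.

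Among 22 genes of the junction between the surface membrane and the store, 5 were called in skeletal muscle and 2 in brain, 3 were higher in heart than in skeletal muscle, 6 the reverse, and 13 were not called. Over all genes, 0.598% were called in skeletal muscle, 2.56% in brain, 16.6% higher in heart and 3.69% higher in skeletal muscle. The list's median log2 difference was -1.05. The 5 genes called in skeletal muscle were Cacng1 (161.5 FPKM, 37.1-fold above parathyroid) and Cacna1s (200.1 FPKM, 8.07-fold above eye), both subunits of the skeletal L-type calcium channel that senses the membrane voltage, and Stac3 (264 FPKM, 9.32-fold above eye), an adaptor of that channel. The other 2 were the junctophilin gene Jph1 (165 FPKM, 10.5-fold above parathyroid) and Jsrp1 (418 FPKM, 8.90-fold above eye), a protein of the junctional membrane. With all 19 tissues Stac3 and Jsrp1 were no longer called. The channel beta subunit gene Cacnb1 was also higher in skeletal muscle than in heart (87.1 against 6.77 FPKM). Higher in heart were Cacna1c, the pore of the cardiac L-type channel (38.3 against 1.12 FPKM), its partner Cacnb2 (27.5 against 0.372 FPKM) and the calcium sensor gene S100a1 (566 against 111 FPKM). S100a1 stood near the 4-fold limit, at a log2 difference of 2.34. Jph3 and Jph4, the junctophilins of neurons, were called in brain at 91.3 and 74.0 FPKM.

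Several junction genes were high in both muscles. Hrc, the histidine-rich calcium-binding protein of the store, was at 586 FPKM in heart and 543 FPKM in skeletal muscle. Sarcalumenin (Srl) was at 394 and 773 FPKM, triadin (Trdn), which anchors calsequestrin to the release channel, at 197 and 673 FPKM, and Jph2 at 108 and 236 FPKM. The potassium channel gene Tmem38a (TRIC-A) was at 227 and 868 FPKM. On total-read scaling none of these 5 differed by 4-fold between the muscles. Trdn and Tmem38a came close, with log2 differences of -1.77 and -1.94, so this too depends on the scaling.

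Of 4 further micropeptide genes that act on SERCA pumps, 1 was called in each muscle, beside 0.598% of all genes in skeletal muscle and 0.451% in heart. Between the muscles, 1 was higher in heart and 1 higher in skeletal muscle, beside 16.6% and 3.69% of all genes. Mrln (myoregulin), an inhibitor of the pump in skeletal muscle, was called there at 86.9 FPKM against 1.11 FPKM in heart, 15.1-fold above eye, but not with all 19 tissues. Strit1, which encodes DWORF, a peptide that opposes phospholamban, was called in heart at 8.19 FPKM against 1.44 FPKM in skeletal muscle (5.68-fold, its next tissue). Erln (endoregulin) and Arln (another-regulin) were highest in stomach, at 137 and 132 FPKM, and not called. The median log2 difference of heart minus skeletal muscle over the 4 was 1.45, beside 0.73 over all genes on total-read scaling.

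The remaining lists, 25 genes in all, held 4 genes higher in heart and 3 higher in skeletal muscle, beside 16.6% and 3.69% of all genes. The 3 IP3 receptor genes, whose products release calcium from the endoplasmic reticulum, were not called, with Itpr1 highest in brain at 348 FPKM. Of 8 luminal protein genes, the testis chaperone Calr3 was called (83.1 FPKM in testis). The chaperones Canx and Hspa5 were higher in heart than in skeletal muscle (171 against 42.6 and 427 against 99.8 FPKM). Both stood near the 4-fold limit, at log2 differences of 2.00354 and 2.09486, so these calls depend on the scaling. The list's median log2 difference was 1.88. Of 5 genes for store-operated entry, Stim1, the sensor of store filling, was higher in skeletal muscle (104 against 12.9 FPKM) and the channel gene Orai2 higher in heart (5.01 against 0.517 FPKM). Of 9 genes for other calcium export, the sodium-calcium exchanger gene Slc8a1 was higher in heart (49.3 against 2.60 FPKM), and its paralog Slc8a3 (22.5 against 0.0892 FPKM) and the plasma membrane pump gene Atp2b3 (3.17 against 0.0164 FPKM) were higher in skeletal muscle. In that list Atp2c2 was called in colon at 35.5 FPKM among 13 tissues but not among 19, and Atp2b2 in brain at 109 FPKM. The median log2 differences of the IP3 receptor, entry and export lists were 1.19, -1.23 and 0.74.

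The protein-coding genes whose pattern over the 13 tissues was most like each store gene were found among 14490 genes by Pearson correlation of log2(FPKM + 1). These correlations share the same 13 libraries and rest largely on 1 high tissue each. Atp2a1 was most like the fast troponin genes Tnnc2 (r = 0.998) and Tnnt3 (0.996) and the fast myosin gene Myh4 (0.991). Ryr1 was nearest to Mybpc1, a myosin-binding protein gene (0.974), Stac3 (0.972) and Vgll2 (0.968), and Casq1 to the skeletal actin gene Acta1 (0.94998), Atp2a1 (0.949) and Mylk2 (0.946). Among the nearest to Pln were Tecrl (0.922) and Mylk3 (0.920), and Sln was nearest to Tecrl (0.939), Mybphl (0.936) and the atrial potassium channel gene Kcnj5 (0.926). Ryr2 was nearest to Cacna1c (0.922), Mtus2 (0.920) and Lrrc3b (0.885), and Casq2 to Myh7b (0.893), Adprhl1 (0.887) and Alpk2 (0.883).

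Rank correlations and the 19 tissues gave lower values for several of these genes. Atp2a2 was nearest to Sbk3 (r = 0.906), Tnni3k (0.895) and Fgf16 (0.888), all highest in heart, with rank correlations of 0.61, 0.46 and 0.60. Atp2a3 was nearest to Galnt6, a mucin-type glycosyltransferase gene (0.890), Grk6 (0.879) and Ccdc71l (0.873). Ryr3 was nearest to Lingo1 (0.911) and Spock2 (0.903), both highest in brain, and to Penk (0.897), the proenkephalin gene, which was highest in WAT at 130.02 FPKM. With all 19 tissues the correlations of Ryr3 were 0.796, 0.661 and 0.716, that of Pln with Mylk3 was 0.629, that of Sln with Kcnj5 was 0.747 and that of Casq2 with Adprhl1 was 0.804.

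Reads shared with other genes limit some values. Whether counting used the strand is not given in the sources used here, and genes on the opposite strand overlap 7 of the 10. In skeletal muscle, Rabep2, opposite to Atp2a1, was at 350 FPKM, Gm17224, opposite to Casq1, at 68.1 FPKM, and Gm26604, opposite to Ryr1, at 23.2 FPKM. The microRNA gene Gm44408, also opposite to Ryr1, was at 233 FPKM there on 263 reads. Genes on the same strand overlap Atp2a2, Ryr1, Ryr2 and Casq2. The highest of these was 4632404M16Rik, within Casq2, at 1.51 FPKM in heart. In heart, Gm47644, opposite to Pln, was at 112 FPKM and Gm43361, opposite to Atp2a2, at 48.3 FPKM. In testis, Cep85l and Aven, opposite to Pln and Ryr3, were at 102 and 79.1 FPKM, beside 11.97 FPKM of Pln and 1.81 FPKM of Ryr3. The coding sequences of the paralogs were 69.1 to 74.9% identical among the pumps, 67.6 to 68.5% among the receptors and 67.1% between the calsequestrins, with no shared run longer than 53 bases.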

How the data were processed

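Each library formed its own group, named by the tissue in its title. Per the labels' protocols, total RNA was extracted with Trizol, treated with DNase and checked on a Bioanalyser. The submitters' processing notes list DESeq2 and give no version. The library kit, strandedness and aligner were not given in the sources used here.

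The authors deposited FPKM for 13 tissues, a group table whose kidney column is a mean, and raw read counts with a second FPKM table for 6 tissues. That second FPKM table was used only for shares of paralogs within a tissue. The deposited FPKM equalled reads divided by the library total and by the mean annotated transcript length (GENCODE M21, rounded down). Whole reads were recovered on that basis: 99.9919% of 308213 values above 0 came out whole within 0.01 of a read, and recovered reads summed to 100.006 to 100.026% of the library totals. Lengths were the annotated mean for 36966 genes and a common denominator for 1104, and 2 were not recovered. FPKM for the 6 count tissues (14949361 to 16683614 reads) used the same lengths and formula. No count model was run, because no tissue has a replicate.

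Enrichment required 1 FPKM and a 4-fold margin over every other tissue with a pseudocount of 0.1 FPKM, and heart and skeletal muscle were compared with the same sizes. Printed folds carry no pseudocount. A library's floor was 3 reads. The 10 store genes, the related lists and the marker lists were chosen with earlier results of these data known. Named genes were all 10 store genes, list genes called in a tissue or between the 2 muscles, the 3 protein-coding genes most correlated with each store gene (FPKM 10 or more in some tissue, predicted models left out), and markers standing beside a result. Of these, 1 correlated gene and 1 marker list sum are not reported here. The 5 junction genes high in both muscles, Erln, Arln, Itpr1, Crisp1 and the overlapping genes were named after their values were seen. Coordinates are those of the deposited table and equal GENCODE M21 (GRCm38) for the 10 genes. The rules were tested on simulated data. Python 3.11.15, numpy 2.4.6, pandas 2.3.3, scipy 1.17.1 and matplotlib 3.10.9 were used.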

Additional observations from a re-analysis of the deposited data

How the results depend on the processing

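The count of 8 store genes enriched in 1 tissue was the same with a pseudocount of 1 FPKM, an 8-fold rule and other level minimums. It also held with 2 other scalings, all 19 tissues and the authors' mean of kidney libraries. Chosen after seeing the data, settings without the eye, parathyroid and aorta libraries or without kidney and eye gave 8 as well. Leaving out those libraries could not remove a call, since none was the highest for a called gene. A 2-fold rule gave 9, adding Atp2a3 in colon. Without the skeletal muscle library the count was 5 and without the heart library 3, since the genes called in the removed tissue lost it. The 51 related genes gave 12 calls in the main setting, 22 with a 2-fold rule and 8 to 15 in the other settings, 8 being the count with all 19 tissues. At a minimum of 5 FPKM, the number of store genes detected fell by more than 1.5 times in several tissues, to 5 from 8 in skeletal muscle and to 3 from 8 in testis. Between heart and skeletal muscle the count was 8, or 10 with a 2-fold rule. The number of tissues led by Pln over Sln moved from 15 to 12 with the longest transcript. No paired analysis was possible because each tissue has 1 library and carries no replicate number. Most neighbouring tissues at levels under 0.2 FPKM were not separated by counting.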
